A study of Mus musculus with 4 samples.

Results

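Akr1c18 and Ptgfr are the 2 genes described here, out of 32285 genes counted in the ovary by single-cell RNA-seq. They were chosen as an ovarian pair known from regression of the corpus luteum, and also for their levels by cell type, condition and library in these same data, so those levels are given as a description. Single-cell suspensions of whole mouse ovaries were profiled in 4 libraries from females aged 8 weeks. The Fosl2F/F libraries (n = 2) came from control mice with 2 floxed copies of Fosl2 (Fosl2flox/flox), and the Fosl2cKO libraries (n = 2) from Cyp19a1-Cre; Fosl2flox/flox mice. Both groups therefore carry the floxed allele, and only the second carries Cre, which the promoter of the aromatase gene Cyp19a1 drives in granulosa cells (GCs). According to the study, the controls were littermates, and vaginal smears of the mice used showed estrus. It gives each group an n equal to its number of libraries, without saying outright that each library is 1 animal, so the spread between libraries may be technical in part.

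The corpus luteum forms from the granulosa and theca cells of a ruptured follicle and secretes progesterone. Prolactin and luteinizing hormone (LH) maintain it. At luteolysis, prostaglandin F2alpha binds its receptor, the Gq-coupled receptor encoded by Ptgfr, and activates phospholipase C, calcium release and protein kinase C. In rodents, Akr1c18 is then induced. It encodes 20alpha-hydroxysteroid dehydrogenase, which turns progesterone into the weakly active 20alpha-hydroxyprogesterone and so ends the progesterone signal. Prolactin acting through STAT5 represses Akr1c18 in the functional gland. The comparison of Fosl2cKO with Fosl2F/F asks what changes in the ovary when the AP-1 subunit FOSL2 is targeted in GCs.

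Akr1c18 (ENSMUSG00000021214) lies at chr13:4132615-4150654 on the minus strand of GRCm38, in a cluster of related aldo-keto reductase genes, and its coding transcripts have 8 to 9 exons. Ptgfr (ENSMUSG00000028036) lies at chr3:151796502-151837630 on the minus strand and has coding transcripts of 2 to 3 exons. The libraries read the 3′ ends of transcripts. Of the 451 stretches of 50 bases in the last 500 bases of either gene, 0 were shared with another gene, so the paralogs of Akr1c18 did not share reads at that length. The bases just before the transcription start of both genes are printed here because they are the regulatory sequence closest to a pair of genes that were both lower in the libraries labelled Fosl2cKO. They are the parts of the RefSeq promoters (GRCm38.p6) before the annotated gene, 5′ to 3′ on the gene's own strand. Capitals mark the only match found, TGACCT, which is the nuclear receptor core motif AGGTCA read on the other strand. The Akr1c18 stretch is chr13:4150655-4150896 and the Ptgfr stretch is chr3:151837631-151837778.
Akr1c18: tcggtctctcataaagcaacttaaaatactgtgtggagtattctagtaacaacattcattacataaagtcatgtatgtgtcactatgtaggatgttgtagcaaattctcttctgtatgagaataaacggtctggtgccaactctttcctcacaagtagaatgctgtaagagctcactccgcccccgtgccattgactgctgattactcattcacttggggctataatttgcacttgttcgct
Ptgfr: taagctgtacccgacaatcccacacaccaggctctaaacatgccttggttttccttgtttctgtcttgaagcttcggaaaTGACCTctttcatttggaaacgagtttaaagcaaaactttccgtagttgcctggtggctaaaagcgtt
A window of 250 bases before the RefSeq start was searched on both strands for the AP-1 site TGANTCA, the NR4A1 element AAAGGTCA, the core motif AGGTCA that lies within it, the STAT5 site TTCNNNGAA, the cyclic AMP response element TGACGTCA, the CCAAT box and the TATA box TATAAA. The core motif was found once, 170 bases before the RefSeq start of Ptgfr, and 14% of 32536 promoters of the same length hold it. The RefSeq starts of both genes lie inside the annotated genes, so the printed stretches are shorter than the window and end before those starts. The other motifs were found in neither window, and 6.73% of promoters hold the AP-1 site, 7.04% the STAT5 site, 1.35% the NR4A1 element, 1.56% the cyclic AMP response element, 33.8% the CCAAT box and 12.3% the TATA box.

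The libraries held 8654 to 28155 barcodes, of which 6760 to 19575 cells were kept, and the kept cells carried 104462668 to 111365033 unique molecular identifiers (UMIs, each a counted transcript). Median UMIs per kept cell were 11190 and 3654 in Fosl2F/F 1 and 2 and 12320 and 12480 in Fosl2cKO 1 and 2, so Fosl2F/F 2 stood apart as the library with most cells and the least depth per cell. Between 15 and 81 barcodes were shared by any pair of libraries, at most 0.763% of the smaller one. Cells fell into 25 clusters, named from marker genes with the 2 genes left out: 11 named classes and 3 clusters that remained unnamed. The macrophage-like class also carries dendritic cell markers. Fosl2 itself, at chr5:32135801-32157842, was measured at 160.5 and 166.7 CPM (UMIs of the gene per 1000000 UMIs of the class) in GCs of Fosl2F/F 1 and 2, and at 166.9 and 114.7 CPM in those of the libraries labelled Fosl2cKO. Its log2 difference was -0.25 (SE 0.20, edgeR adjusted p = 0.9999), and in luteal-like cells it stood at 163.1, 192.3, 200.7 and 304.1 CPM in the same order. The LoxP sites flank the coding exons, the deposited counts do not separate exons, and how much of the last exon with its 3′ untranslated region lies between the sites is not given in the sources used here, so this measurement does not decide whether the labels hold. The groups are therefore called the Fosl2F/F libraries and the libraries labelled Fosl2cKO.

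Akr1c18 was abundant in the Fosl2F/F ovaries and close to absent in the others. All barcodes together gave 11427 and 10522 Akr1c18 UMIs in Fosl2F/F 1 and 2, against 397 and 78 in Fosl2cKO 1 and 2. The difference in number is thus present before any cell was filtered or named here, though every deposited barcode already held at least 500 UMIs. For Ptgfr the counts were 10007 and 20589 UMIs in Fosl2F/F 1 and 2, against 4090 and 6954 in Fosl2cKO 1 and 2, so it was lower in both of the latter but still plentiful. Over the kept cells, Akr1c18 stood at 94.2 and 82.9 CPM in Fosl2F/F 1 and 2, and at 2.98 and 0.627 CPM in Fosl2cKO 1 and 2. Ptgfr stood at 78.3 and 144.1 CPM in Fosl2F/F 1 and 2, and at 31.0 and 56.5 CPM in the libraries labelled Fosl2cKO. For neither gene did the groups overlap, and the share of all genes for which this holds was not counted over the kept cells. In luteal-like cells, 18.2% of all genes tested were lower without overlap.

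Luteal-like cells held most of both transcripts in the Fosl2F/F libraries. The class has 2041 cells, 177 and 1246 in Fosl2F/F 1 and 2 and 329 and 289 in Fosl2cKO 1 and 2, and its 2 clusters carried 9 and 8 of the 9 luteal markers. Luteal-like cells were 2.17% and 6.37% of the kept cells of Fosl2F/F 1 and 2, yet they carried 89.8% and 89.3% of the Akr1c18 UMIs and 78.9% and 88.7% of the Ptgfr UMIs. In Fosl2cKO 1 and 2 they were 4.87% and 4.10% of cells and carried 61.7% and 77.1% of the Ptgfr UMIs, but 22.9% and 3.03% of the few Akr1c18 UMIs. GCs gave 204 Akr1c18 UMIs in Fosl2cKO 1, of which 1 cell held 98, and 56 in Fosl2cKO 2.

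In luteal-like cells Akr1c18 gave 9145 UMIs in Fosl2F/F 1 and 7729 in Fosl2F/F 2, against 76 in Fosl2cKO 1 and 2 in Fosl2cKO 2. Relative to all UMIs of the class, this was 2590 CPM (95% exact Poisson interval 2537 to 2644) in Fosl2F/F 1 and 474.8 CPM (464.3 to 485.5) in Fosl2F/F 2. It was 11.1 CPM (8.70 to 13.8) in Fosl2cKO 1 and 0.321 CPM (0.0388 to 1.16) in Fosl2cKO 2, where the 2 UMIs lie under the limit of 3 counts. All intervals cover counting error only. Both Fosl2F/F libraries were far above both others, and the Fosl2F/F libraries themselves differed more from each other than counting error allows. The group means were 1532 ± 1496 CPM in Fosl2F/F and 5.68 ± 7.59 CPM in the libraries labelled Fosl2cKO (SD, n = 2 each).

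Ptgfr in luteal-like cells gave 6670 and 13353 UMIs in Fosl2F/F 1 and 2, and 2129 and 4588 in Fosl2cKO 1 and 2. Its levels were 1889 CPM (1844 to 1935) and 820.3 CPM (806.4 to 834.3) in Fosl2F/F 1 and 2, against 309.4 CPM (296.4 to 322.8) and 735.1 CPM (714.0 to 756.7) in Fosl2cKO 1 and 2. The groups did not overlap, but Fosl2cKO 2 lay close under Fosl2F/F 2. The group means were 1355 ± 756 and 522.2 ± 301.0 CPM (SD, n = 2 each). For 1 Ptgfr UMI there were 1.37 Akr1c18 UMIs in Fosl2F/F 1 and 0.579 in Fosl2F/F 2, against 0.0357 and 0.000436 in Fosl2cKO 1 and 2. Ptgfr was thus counted well above the limit of 3 UMIs in luteal-like cells of every library, while Akr1c18 was under that limit in Fosl2cKO 2.

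**Figure D1:**
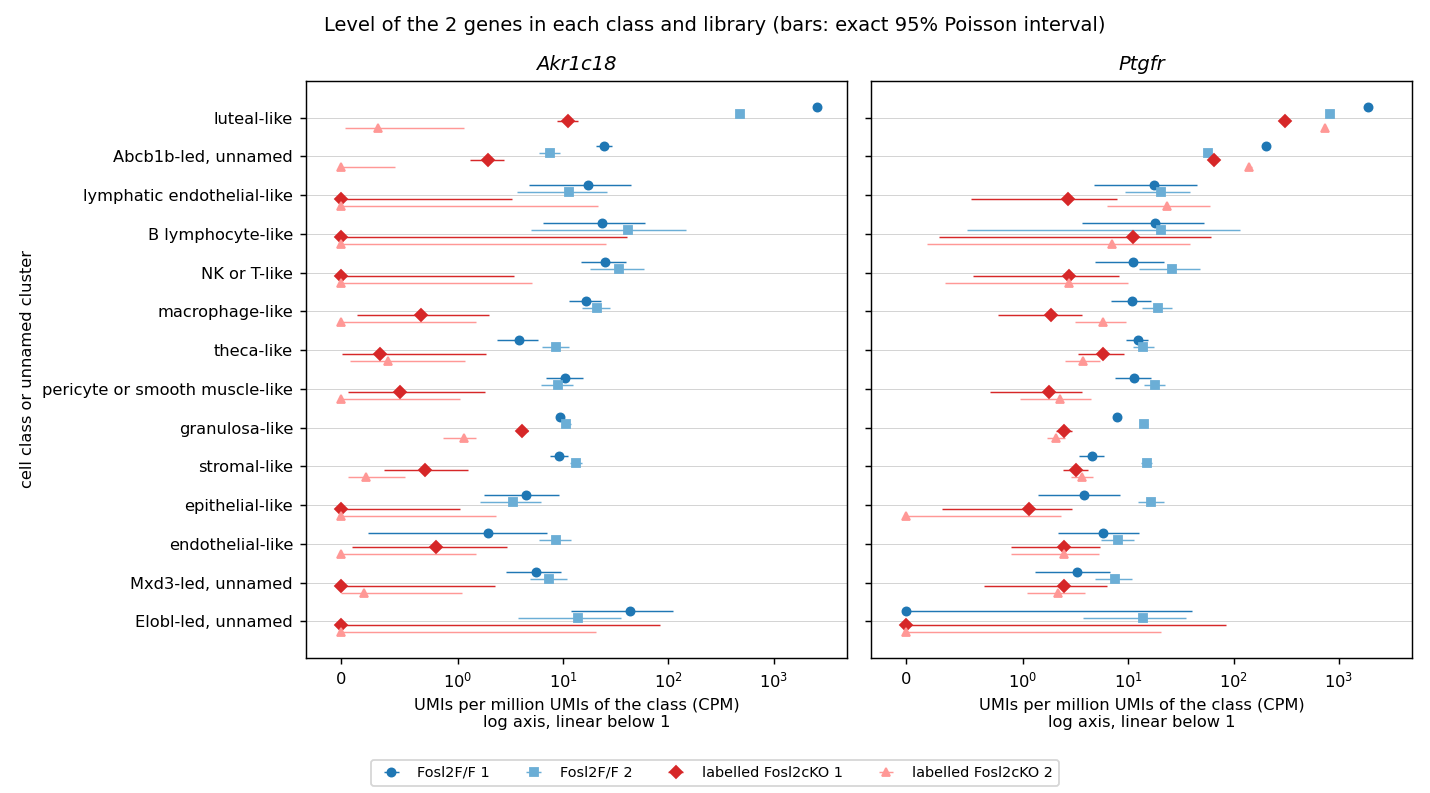
Levels of the 2 genes by cell class. Each point is 1 library, in CPM of a class on a log axis that is linear below 1, for 11 named classes and 3 unnamed clusters called by their leading gene, with bars for the 95% exact Poisson interval. Akr1c18 in luteal-like cells spans 0.321 to 2590 CPM over the libraries, while Ptgfr stays at 309.4 CPM or more there and at 56.9 to 203.1 CPM in the Abcb1b-led cluster.

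The shares of cells with a UMI kept the groups apart for Akr1c18 but not for Ptgfr. With each cell thinned to 2000 UMIs, which left out 51, 87, 10 and 17 shallower luteal-like cells of the 4 libraries, Akr1c18 was seen in 46.0% (95% Clopper-Pearson interval 37.1 to 55.1) of 126 cells of Fosl2F/F 1 and 13.3% (11.4 to 15.4) of 1159 cells of Fosl2F/F 2. It was seen in 1.57% (0.511 to 3.62) of 319 cells of Fosl2cKO 1 and 0.368% (0.00931 to 2.03) of 272 cells of Fosl2cKO 2. Ptgfr was seen in 93.7% and 65.1% of the Fosl2F/F cells and in 27.9% and 65.8% of the others, so its share in Fosl2cKO 2 was about that of Fosl2F/F 2. Without thinning, the shares were 67.8%, 21.1%, 2.74% and 0.692% for Akr1c18 and 91.5%, 87.3%, 66.9% and 90.3% for Ptgfr, at median depths of 15060, 7681, 15570 and 14630 UMIs. For Ptgfr the groups overlapped on both scales of share, unlike the CPM.

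Immune and endothelial-like cells, without the lymphatic endothelial-like class, were taken as the classes in which to judge the free RNA that droplets pick up. In these classes together, Akr1c18 stood at 14.5 and 14.2 CPM in Fosl2F/F 1 and 2, at 0.624 CPM in Fosl2cKO 1 and at 0 in Fosl2cKO 2. The limit of 3 counts there is 0.519 CPM, and the exact Poisson interval of the count of 0 goes up to 0.638 CPM. Thinned to 2000 UMIs, 4.57% of 547 and 2.66% of 977 such cells of the Fosl2F/F libraries had an Akr1c18 UMI, against 0 of 838 and 0 of 637 in the libraries labelled Fosl2cKO, where the upper bounds of the intervals are 0.439% and 0.577%. The background was thus itself higher where luteal-like cells carried more. It came to 0.559%, 3.001% and 5.65% of the Akr1c18 level of luteal-like cells in Fosl2F/F 1, Fosl2F/F 2 and Fosl2cKO 1. In Fosl2cKO 2 the limit of 0.519 CPM is above the luteal-like level of 0.321 CPM, so the background there could be all of it.

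The Ptgfr background was 9.91, 12.7, 2.25 and 3.98 CPM in Fosl2F/F 1 and 2 and Fosl2cKO 1 and 2, which is 0.524%, 1.55%, 0.726% and 0.541% of the luteal-like level. For 1 background Ptgfr UMI there were 1.46 and 1.12 Akr1c18 UMIs in Fosl2F/F 1 and 2 and 0.278 and 0 in Fosl2cKO 1 and 2, in the same order as among luteal-like cells. Immune cells, with median depths of 4245, 2023, 5103 and 4994 UMIs, carried 19.0 and 23.2 CPM of Akr1c18 in Fosl2F/F 1 and 2. Endothelial cells, with median depths of 5123, 3412, 8083 and 6431 UMIs, carried 1.93 and 8.53 CPM. In both Fosl2F/F libraries the intervals of the immune and endothelial values did not overlap. They were 14.3 to 24.7 and 0.234 to 6.97 CPM in Fosl2F/F 1, and 17.67 to 29.95 and 5.91 to 11.92 CPM in Fosl2F/F 2. What sets them apart was not tested. Lymphatic endothelial-like cells stood at 17.4 CPM (4.73 to 44.5) in Fosl2F/F 1 and 11.3 CPM (3.67 to 26.4) in Fosl2F/F 2. These values rest on 4 and 5 UMIs, and their intervals overlapped both the immune and the endothelial ones. With the background of the same library subtracted, luteal-like Akr1c18 stood at 2576, 460.5 and 10.4 CPM in Fosl2F/F 1, Fosl2F/F 2 and Fosl2cKO 1, and Ptgfr in the 4 libraries at 1879, 807.6, 307.2 and 731.2 CPM.

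**Figure D2:**
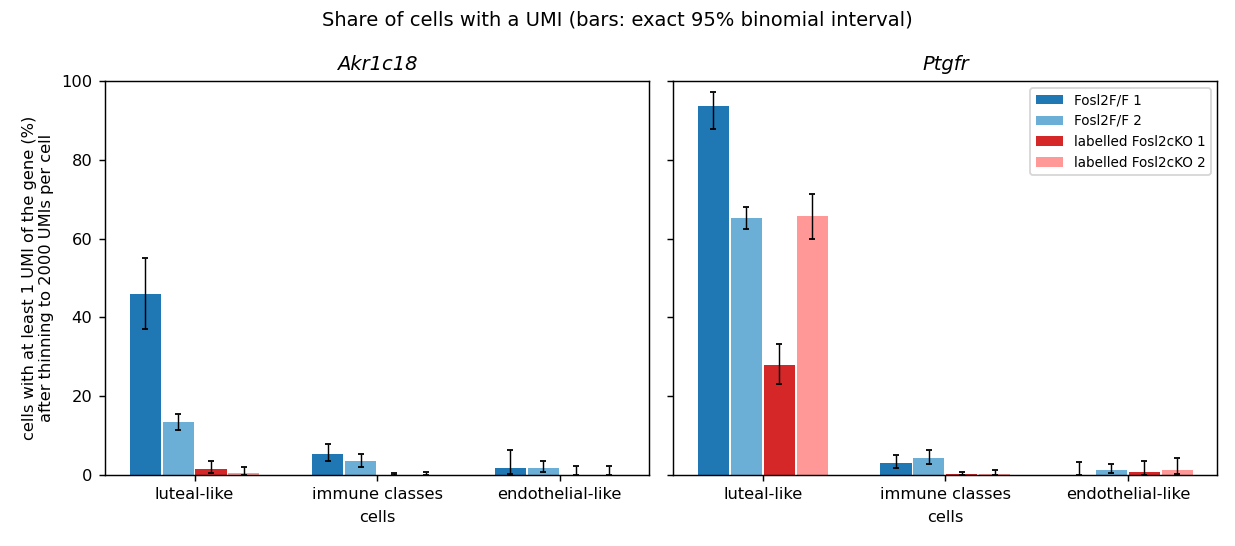
Share of cells with a UMI of each gene. Bars give the percent of cells of a library with at least 1 UMI after thinning each cell to 2000 UMIs, in luteal-like, immune and endothelial-like cells, and lines give the 95% exact binomial interval. Akr1c18 was seen in 46.0% of luteal-like cells in Fosl2F/F 1 and 0.368% in Fosl2cKO 2, while Ptgfr was seen in 27.9% or more in every library.

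Across the 14 classes and unnamed clusters, luteal-like cells came first for both genes. For Akr1c18 the mean over the 4 libraries was 769.0 CPM in luteal-like cells, 16.2 in B lymphocyte-like, 14.8 in NK or T-like and 9.48 in macrophage-like cells, 6.35 in GCs, 5.87 in stromal-like, 3.28 in theca-like and 2.82 in endothelial-like cells and 1.96 in epithelial-like cells. The ranges over the libraries of all neighbours in this order overlapped, that of luteal-like cells because its level in Fosl2cKO 2 is near 0. The luteal-like mean ranged from 162.1 to 1025 CPM with 1 library left out. Within Fosl2F/F 1, Fosl2F/F 2 and Fosl2cKO 1, luteal-like cells were above every other class. In Fosl2cKO 2 they gave 2 UMIs, under the limit of 3 counts, and no rank is read there. No class other than the luteal-like one had a mean above the levels seen in lymphocyte-like cells. The B lymphocyte-like cluster is led in part by the neutrophil genes S100a8 and S100a9, and its level rests on 6 UMIs.

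After luteal-like cells, Ptgfr was highest in a cluster without a name. Its mean was 938.5 CPM (309.4 to 1889) in luteal-like cells and 116.6 CPM (56.9 to 203.1) in an unnamed cluster of 3654 cells led by Abcb1b, a drug efflux pump, and by Adh1 and Coro2a. Next came lymphatic endothelial-like cells at 15.9 CPM (2.69 to 23.2). Neither of these steps overlapped, whereas every later neighbour in the order overlapped with the next: 14.1 CPM in B lymphocyte-like, 10.7 in NK or T-like, 9.35 in macrophage-like and 8.89 in theca-like cells, 8.30 in pericyte or smooth muscle-like cells, 6.64 in GCs, 6.57 in stromal-like and 5.37 in epithelial-like cells, and 4.68 in endothelial-like cells. The Abcb1b-led cluster matched luteal markers (score 0.524) only slightly better than theca markers (0.475), so it was not named. At the finer clustering resolution of 1.2 it divided into 2 clusters, and the one that carried Ptgfr met the rule for luteal-like cells: 1069 cells led by Pik3c2g and Abcb1b, with a luteal score of 0.57 against 0.37 for theca. These cells held 359.6 and 154.3 CPM of Ptgfr in Fosl2F/F 1 and 2 and 117.5 and 296.0 CPM in Fosl2cKO 1 and 2. The other 2585 cells stood at 11.1, 16.7, 1.89 and 3.30 CPM, near the background of immune and endothelial cells. At that resolution the luteal-like class had 2998 cells, and the log2 differences in it were -8.13 for Akr1c18 and -1.43 for Ptgfr. In the undivided cluster Ptgfr stood at 203.1 and 56.9 CPM in Fosl2F/F 1 and 2 and at 65.8 and 140.4 CPM in Fosl2cKO 1 and 2, so here the groups overlapped. After thinning, 19.3%, 7.11%, 6.26% and 11.7% of its cells had a Ptgfr UMI. Akr1c18 stood there at 24.7, 7.53, 1.93 and 0 CPM, against 14.5, 14.2, 0.624 and 0 CPM in immune and endothelial cells.

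A few cells with many transcripts carried much of the Akr1c18 signal. In Fosl2F/F 1, 58 luteal-like cells held 10 or more Akr1c18 UMIs and 20 held 100 or more, with a highest cell of 1076 UMIs. In Fosl2F/F 2, 97 cells held 10 or more and 25 held 100 or more, with a highest of 315. In the libraries labelled Fosl2cKO there were 2 and 0 cells with 10 or more, and the highest cells held 35 UMIs and 1 UMI. The 10 cells with most Akr1c18 held 62.9% of the luteal-like UMIs in Fosl2F/F 1 and 29.7% in Fosl2F/F 2. With the cells of 10 or more UMIs set aside, the level was 117.5, 26.7, 2.96 and 0.321 CPM, still apart between groups but, by construction, much lower.

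Ptgfr was spread over more cells. There were 104 and 395 luteal-like cells with 10 or more Ptgfr UMIs in Fosl2F/F 1 and 2, and 57 and 142 in Fosl2cKO 1 and 2, and the highest cells held 170, 223, 105 and 166 UMIs. The 10 cells with most Ptgfr held 20.1%, 9.84%, 33.0% and 20.2% of the luteal-like UMIs. After thinning, nearly all cells with Akr1c18 also had Ptgfr: 58 of 58 in Fosl2F/F 1 and 148 of 154 in Fosl2F/F 2. Of the cells without Akr1c18, 88.2% and 60.4% had Ptgfr. The reverse did not hold, since 60 and 607 cells of the same libraries had Ptgfr without Akr1c18. In Fosl2cKO 1 and 2, 84 and 178 cells had Ptgfr without Akr1c18, and 5 and 1 had both. Outside the luteal-like class, 3 GCs of Fosl2F/F 1 held 93 of the 674 Akr1c18 UMIs of their class, and 1 GC of Fosl2cKO 1 held 98 of 204. Without that cell the GC level of Fosl2cKO 1 was 2.12 instead of 4.08 CPM.

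**Figure D3:**
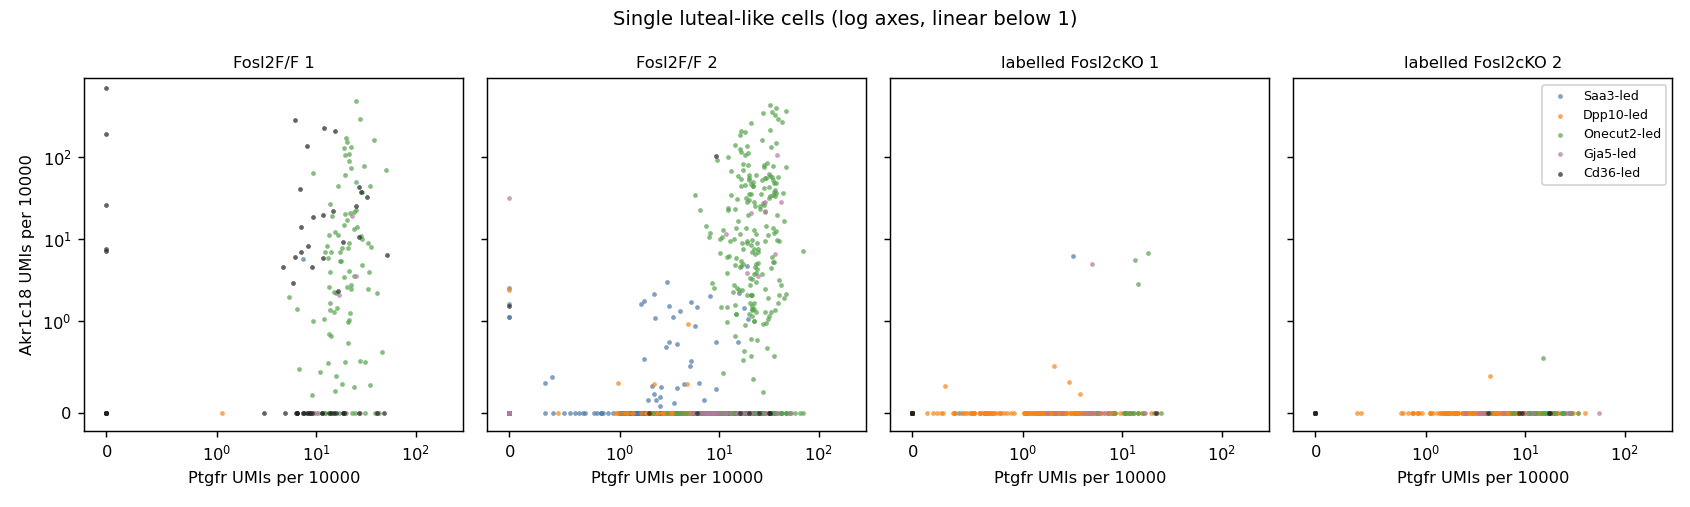
Single luteal-like cells of each library. Each point is 1 cell, with its Ptgfr UMIs per 10000 on the horizontal and its Akr1c18 UMIs per 10000 on the vertical axis, both log axes that are linear below 1, coloured by luteal-like cluster. Cells high in both fill the upper right in the Fosl2F/F libraries, whereas all but 9 of 329 and 2 of 289 cells of Fosl2cKO 1 and 2 lie along the bottom, with no Akr1c18, and 220 and 261 cells of these libraries have Ptgfr.

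Luteal-like cells were not uniform. Clustered again without the 2 genes, they gave 5 clusters, and different clusters held most of the class in the different libraries. A cluster led by Onecut2, Nupr1, Tnc, Pitx1 and Piezo2 (475 cells) held 104 of the 177 luteal-like cells of Fosl2F/F 1, 330 of Fosl2F/F 2, and 15 and 26 of Fosl2cKO 1 and 2. A cluster led by Saa3, Cited1, Kcnip4, Amdhd1 and Cst8 (764 cells) held 710 cells of Fosl2F/F 2 and 1, 35 and 18 of the other libraries. A cluster led by Dpp10, Col8a1, Ces2a, Ntm and Plb1 (578 cells) held 247 and 211 cells of Fosl2cKO 1 and 2, and 1 and 119 of Fosl2F/F 1 and 2. Plb1 differs between the groups itself, so these cell numbers are given only as what the values rest on. Clusters led by Gja5, Shc3, Scg2, Vsnl1 and Nrxn2 (143 cells) and by Cd36, Edn1, Trdc, Nts and Krt7 (81 cells) were small and shallow.

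Akr1c18 lay almost wholly in the Onecut2-led cluster. It gave 8688 of its 9145 luteal-like UMIs there in Fosl2F/F 1 and 7607 of 7729 in Fosl2F/F 2, or 2610 and 2280 CPM, so within this cluster the Fosl2F/F libraries were close to each other. The same cluster gave 64 UMIs (164 CPM, 126.3 to 209.5) from 15 cells of Fosl2cKO 1, of which 3 had any, and 1 UMI (1.97 CPM, 0.0499 to 10.99) from 26 cells of Fosl2cKO 2. Akr1c18 was thus lower within the cluster too, on few cells. The cluster's leading gene Onecut2 had 428.5 and 852.9 CPM in Fosl2F/F 1 and 2. In Fosl2cKO 1 and 2 it had 151.2 and 72.96 CPM. Onecut2 was picked as leading gene from UMIs pooled over libraries, mostly of Fosl2F/F cells, so nothing is read from this difference. Clustered without integration, the matching cluster held 7 and 6 cells of Fosl2cKO 1 and 2, with Akr1c18 at 84.97 and 10.32 CPM. Akr1c18 then gave 67 of its UMIs of Fosl2cKO 1 in a Plb1-led cluster. In the Saa3-led cluster it stood at 3.88 CPM (2.83 to 5.19) in Fosl2F/F 2. There it stood at 8.50 CPM (3.12 to 18.5) from 6 UMIs of 35 cells in Fosl2cKO 1, so not below Fosl2F/F 2. In Fosl2cKO 2 it stood at 0 CPM (up to 6.745). It stood in the Dpp10-led cluster at 4.18 CPM in Fosl2F/F 2 and 0.887 and 0.197 CPM in Fosl2cKO 1 and 2. The values of Fosl2F/F 2 are below its own background in immune and endothelial cells, and those of Fosl2cKO 1 and 2 in the Dpp10-led cluster rest on 5 UMIs and 1 UMI, so these are not read as expression. The small Cd36-led cluster had 3922 CPM (3558 to 4314) in 58 cells of Fosl2F/F 1, whose median was 1524 UMIs, and 425 UMIs in all.

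Ptgfr was highest in the Onecut2-led cluster, at 1940 and 2316 CPM in Fosl2F/F 1 and 2 and 1317 and 1562 CPM in Fosl2cKO 1 and 2. All or nearly all of its cells had a Ptgfr UMI: 100%, 99.1%, 100% and 100%. The other large clusters had less but far above background: 434.6 CPM in the Saa3-led cells of Fosl2F/F 2, with 359.9 and 885 CPM in those of Fosl2cKO 1 and 2, and 367.6, 235.1 and 631.4 CPM in the Dpp10-led cells of Fosl2F/F 2 and Fosl2cKO 1 and 2. Within these 2 clusters, Ptgfr in Fosl2cKO 2 was above that in Fosl2F/F 2, and in Fosl2cKO 1 below it. The LH receptor gene Lhcgr was lower in the Onecut2-led cluster than in the Saa3-led and Dpp10-led ones within each of 3 libraries: 116.0 against 2077 and 2046 CPM in Fosl2F/F 2, 179.4 against 779.3 and 505.2 CPM in Fosl2cKO 1, and 396.3 against 2761 and 2397 CPM in Fosl2cKO 2. Fosl2F/F 1 had 1 cell in each of the other 2 clusters. The prolactin receptor gene Prlr stood at 1358 against 2656 and 1881, 1846 against 2893 and 2252, and 1684 against 3606 and 2982 CPM in the same order. Sfrp4, a secreted Wnt modulator, stood at 3723 against 1566 and 2169 and 1510 against 178.5 and 281.9 CPM, but at 1505 against 1505 and 1915 CPM in Fosl2cKO 2, where the clusters did not differ in that direction. Of the markers of other cell types, pooled over libraries of 15 to 330 cells, it held 204.6 CPM of the granulosa gene Inha, 31.3 of the granulosa gene Fshr, 6.08 of the theca gene Cyp17a1, 23.1 of the stromal gene Dcn, 1.72 of the macrophage gene Cd68 and 10.1 of the endothelial gene Pecam1. Star, which brings cholesterol into mitochondria, had no one order over the clusters: 1130, 927.7 and 239.8 CPM in the Onecut2-led, Saa3-led and Dpp10-led cells of Fosl2F/F 2, 99.97, 155.9 and 196.1 CPM in Fosl2cKO 1, and 19.7, 89.6 and 18.5 CPM in Fosl2cKO 2. The luteal marker Hsd17b7 stood at 172.3 against 869 and 362.6 CPM in Fosl2F/F 2. It went the other way in Fosl2cKO 1 (645.9 against 351.4 and 231.4 CPM) and 2 (1731 against 1139 and 933.1 CPM). Cyp11a1 and Scarb1 had no one order over these clusters either. Of the 3 large clusters, the Onecut2-led one had the most Ptgfr and the least Lhcgr in those 3 libraries. Its Akr1c18 was the highest of them in Fosl2F/F 2 and Fosl2cKO 1, while in Fosl2cKO 2 it rests on 1 UMI. Since the clusters were made from these cells, this is a description without a test.

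**Figure D4:**
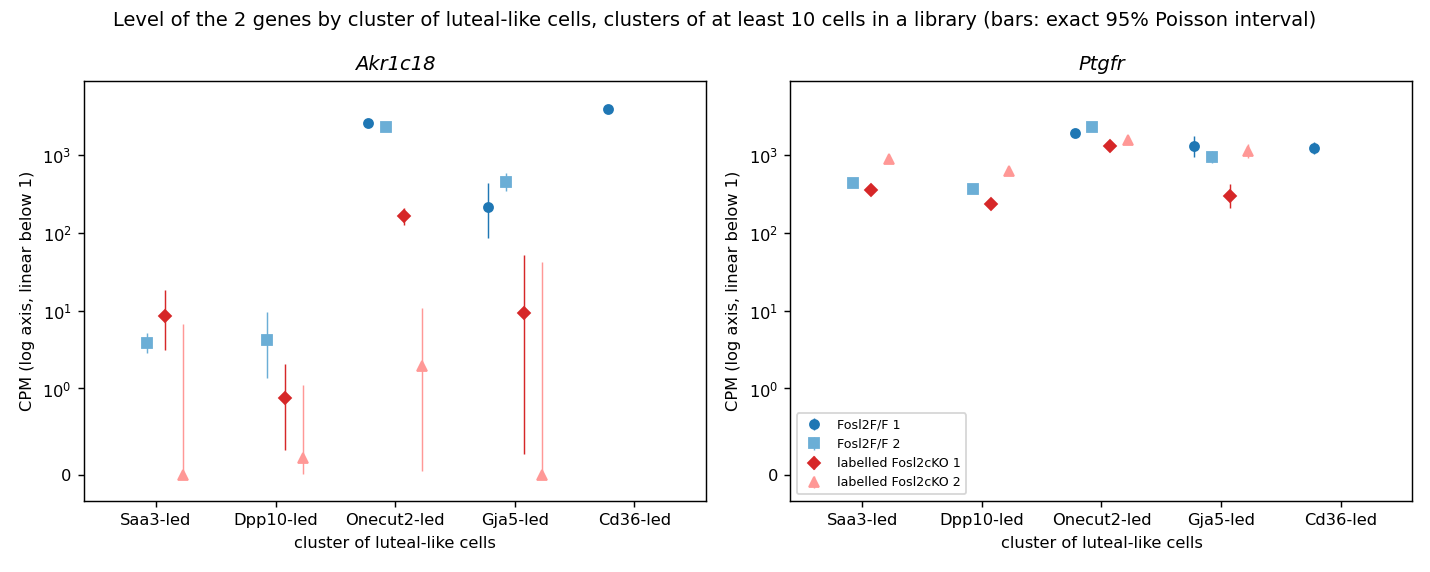
Levels of the 2 genes by luteal-like cluster. Each point is 1 library with at least 10 cells in the cluster, in CPM on a log axis that is linear below 1, with bars for the 95% exact Poisson interval. In the Onecut2-led cluster Akr1c18 goes from 2610 CPM in Fosl2F/F 1 to 1.97 in Fosl2cKO 2, while Ptgfr lies between 1317 and 2316 CPM.

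The edgeR fit of summed UMIs over all genes gave Akr1c18 a log2 difference of -8.18 (SE 1.67) between the libraries labelled Fosl2cKO and the Fosl2F/F libraries in luteal-like cells, and Ptgfr one of -1.52 (SE 0.61). A gene is called at an adjusted p below 0.1 and a log2 difference above 0.25 in size. Neither gene was called by edgeR, while DESeq2 called Akr1c18. In the edgeR fit 2 of 12804 genes were called, or 0.0156%, and 1402 had an unadjusted p under 0.05, while DESeq2 called 462 genes. The 2 genes called by edgeR, named after their values were seen, were Plb1, encoding a phospholipase, at 0.850 and 0.307 CPM against 2162 and 3665 CPM (log2 difference 12.5, SE 0.81, edgeR adjusted p = 0.0268), and Gm36840, at 0 and 0.061 against 34.4 and 39.1 CPM. Plb1 lies downstream of the targeted gene, at chr5:32232708-32366520 on the plus strand, 74866 bases after the end of Fosl2 and in the same orientation. Gm36840 is annotated as antisense within Plb1, at chr5:32320764-32354883. On simulated counts of this comparison, 46% of genes changed 4-fold and 5% of genes changed 2-fold were recovered. Both genes chosen here were lower in both libraries labelled Fosl2cKO than in both Fosl2F/F libraries, as were 18.2% of all genes tested, and 29.3% were higher. Since the genes were chosen with their values by condition known, no p is given for them.

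The size of both differences moved with the cells and libraries used. With the cells of the parent cluster of the Onecut2-led cells left out, an analysis added after the data were seen, the log2 difference was -10.4 for Akr1c18 and -0.86 for Ptgfr. Without Fosl2F/F 1 it was -6.48 and -0.78, and without Fosl2F/F 2 it was -8.92 and -1.97. Without Fosl2cKO 1 it was -12.3 and -1.04, and without Fosl2cKO 2 it was -7.23 and -2.24. Both genes kept their direction in each case. Outside the Onecut2-led cells, most Akr1c18 UMIs of Fosl2F/F 1 came from 58 shallow Cd36-led cells (425 UMIs). In the other large clusters of Fosl2F/F 2, Akr1c18 was under the background of that library. The value of -10.4 is therefore not read as a larger difference.

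In GCs, theca-like, stromal-like and macrophage-like cells both transcripts were far below the luteal-like level of the Fosl2F/F libraries. In GCs, Akr1c18 stood at 9.40 and 10.7 CPM against 4.08 and 1.15 CPM, and Ptgfr at 7.79 and 14.2 against 2.46 and 2.06 CPM. In the Fosl2F/F libraries the GC level of Akr1c18 was above that of endothelial cells alone (1.93 and 8.53 CPM), with overlapping intervals in Fosl2F/F 2. It was under that of immune and endothelial cells together. In the libraries labelled Fosl2cKO it was above it: 4.08 CPM (3.54 to 4.69) against 0.624 CPM (0.203 to 1.46), and 1.15 CPM (0.870 to 1.495) against 0 CPM (up to 0.638). The log2 differences were -1.98 for Akr1c18 and -2.30 for Ptgfr, where 0.00579% of the genes tested were called. That of Akr1c18 was -3.13 without Fosl2cKO 1 and -1.36 without Fosl2cKO 2. In GCs both genes passed with DESeq2 and without Fosl2cKO 1, and Ptgfr without Fosl2cKO 2. In theca-like cells the log2 differences were -4.01 and -1.60, where 0.0393% were called. There Akr1c18 passed without either Fosl2cKO library, and Ptgfr without Fosl2cKO 1. At cluster resolution 0.5 the theca-like class held 5125 cells instead of 1712, and its Ptgfr difference was -0.14 (SE 0.40). In stromal-like cells, Akr1c18 at 9.20 and 13.4 against 0.719 and 0.215 CPM passed the thresholds of the fit (-4.65, SE 0.51), where 0.156% were called, but not without Fosl2F/F 1 (-4.85) or without Fosl2F/F 2 (-4.42). Ptgfr there went from -1.56 to -0.52 without Fosl2F/F 2. In macrophage-like cells, Akr1c18 at 16.4 and 20.9 against 0.685 and 0 CPM passed them (-5.32, SE 0.63), where 0.33% were called, but not with doublets kept and no integration (-2.54), and the difference was -8.38 without Fosl2cKO 1. Ptgfr there, at -2.14, passed without Fosl2F/F 1 (-2.44) and without Fosl2cKO 2 (-3.01). The remaining fits called neither gene, with 0.177% of genes called in endothelial-like cells and 0.125% in the Abcb1b-led cluster. With a library left out, Akr1c18 passed in the Abcb1b-led cluster (-3.78) without Fosl2F/F 2 (-4.43), Fosl2cKO 1 (-9.97) or Fosl2cKO 2 (-3.04), and in endothelial-like cells, where it was too low to test with all libraries, without Fosl2cKO 1 (-6.97). With all libraries, 2 of 11 fits of either gene in classes other than the luteal-like one passed. The number of genes called moved with the setting for all genes too. DESeq2 called 165 of 25894 genes in GCs. With 1 Fosl2cKO library left out, more genes were called than with all libraries in every class and cluster fitted here. With 1 Fosl2F/F library left out, fewer were called in luteal-like cells, GCs, theca-like and stromal-like cells. More were called in macrophage-like and endothelial-like cells and in the Abcb1b-led cluster. Since the genes were chosen with their levels by class and condition known, nothing is read from these passes. The background of immune and endothelial cells moved the same way, and its part in these values was not tested. Macrophage-like cells belong to that background themselves, with 33 of its 57 and 44 of its 93 Akr1c18 UMIs in Fosl2F/F 1 and 2, so they cannot be set against it.

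Genes around the receptor and the enzyme were read from lists of their pathways, in luteal-like cells. Of 7 lists, none had a called gene in either direction in the edgeR fit, where 20 of their 85 genes tested had an unadjusted p under 0.05, as did 10.9% of all genes tested. DESeq2 called 9 list genes, named here after their values were seen, with 4 lower (Star, Mmp2, the prostaglandin transporter gene Slco2a1 and the cytokine signalling inhibitor gene Cish) and 5 higher (its relatives Socs1 and Socs3, the Gq-family subunit gene Gna11, the phospholipase C gene Plcb1 and Jund), where it called 2.08% of all genes. For reading the counts without overlap that follow, 29.3% of all genes tested were higher without overlap and 18.2% were lower. The other aldo-keto reductases of the Akr1c cluster stand beside Akr1c18. Of 8 genes 3 were measured well enough to test. Akr1cl had 4144 and 4073 CPM in Fosl2F/F 1 and 2 and 2833 and 1338 CPM in Fosl2cKO 1 and 2 (log2 difference -1.10, SE 0.53, edgeR adjusted p = 0.495). Akr1c14, a 3alpha-hydroxysteroid dehydrogenase, had 20.7 and 83.8 against 69.6 and 282.0 CPM (1.60, SE 0.83, adjusted p = 0.517), and so lay on the other side. Akr1c13 lay between 1.74 and 2.72 CPM. By class, Akr1cl was highest in the Abcb1b-led cluster (mean 7401 CPM) and Akr1c14 in GCs (170.5 CPM), while Akr1c12, Akr1c19 and Akr1c21 had means under 10 CPM in every class.

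On the side of the ligand, 14 of 20 genes of prostaglandin synthesis, transport and reception were tested, with 2 higher and 3 lower without overlap and a median log2 difference of -0.17, against -0.02 for all genes tested. Ptges, a prostaglandin E synthase, had 78.7 and 73.3 against 48.0 and 20.7 CPM (log2 difference -1.27, SE 0.44, adjusted p = 0.412). Prxl2b, a prostaglandin F synthase, had 85.2 and 168.5 against 136.2 and 54.6 CPM, and Akr1b3, an aldose reductase with that activity, had 109.6 and 84.6 against 102.6 and 80.0 CPM. Ptges3 had 217.8, 341.3, 296.3 and 281.2 CPM. Downstream of the receptor, 14 of 14 genes of the Gq and protein kinase C arm were tested, with 6 higher and 1 lower without overlap and a median of 0.49. Gnaq, the G protein subunit itself, had 164.0 and 469.4 against 341.5 and 670.4 CPM. Itpr1, the calcium release channel, had 220.9 and 211.4 against 315.1 and 365.6 CPM (0.53, SE 0.29, adjusted p = 0.538), and Plcb1 had 29.7 and 43.5 against 78.3 and 390.5 CPM (2.53, SE 0.73, edgeR adjusted p = 0.367). Prkca, a protein kinase C, had 75.3 and 168.9 against 188.1 and 167.4 CPM.

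The immediate transcription factors, which prostaglandin F2alpha is known to induce in luteal cells and which dissociation of a tissue induces too, lay higher in the libraries labelled Fosl2cKO for 10 of 12 genes, without overlap, with a median log2 difference of 0.76. The targeted gene Fosl2 is in this list and among those 10. No gene of the list was called by edgeR, while DESeq2 called Jund. Jun had 1267 and 1728 against 2400 and 3322 CPM (0.81, SE 0.43, adjusted p = 0.524), Fos 952.5 and 1323 against 2017 and 2160 CPM (0.75, SE 0.39, adjusted p = 0.521), Junb 893.6 and 1051 against 1624 and 1952 CPM, and Egr1 599.0 and 1163 against 1405 and 2033 CPM.

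Of the luteotropic genes, 13 of 13 genes of prolactin and LH support were tested, with 3 higher and 3 lower without overlap and a median of 0.04. Prlr had 1030 and 2335 against 2288 and 2911 CPM, and Lhcgr 143.6 and 1664 against 512.6 and 2248 CPM, so their groups overlapped and Fosl2F/F 1 was lowest for both. Igf1r, the receptor of insulin-like growth factor 1, had 526.3 and 601.6 against 544.6 and 547.5 CPM. Stat3 had 151.0 and 315.4 against 512.6 and 493.8 CPM (0.99, SE 0.42, adjusted p = 0.463). For progesterone synthesis, 15 of 15 genes were tested, with 1 higher and 5 lower without overlap and a median of -0.01. Cyp11a1, the side-chain cleavage enzyme that makes pregnenolone, had 6120 and 8214 against 5520 and 5407 CPM, and Hsd3b1, which makes progesterone from it, had 1414 and 3961 against 2087 and 3883 CPM. Fdx1, which passes electrons to the side-chain cleavage enzyme, had 2099 and 3762 against 4003 and 1097 CPM, and Scarb1, the lipoprotein receptor that takes up cholesterol, had 1035 and 2130 against 1044 and 1259 CPM. Star had 699.6 and 914.6 against 187.3 and 26.3 CPM (-3.03, SE 0.89, adjusted p = 0.372), the lowest log2 difference of this list. Of 19 genes of structural regression 14 were tested, with 4 higher and 3 lower without overlap and a median of -0.41. The collagenase gene Mmp14 had 150.1 and 54.7 against 33.3 and 110.2 CPM. Timp1, a metalloproteinase inhibitor, had 1126 CPM in Fosl2F/F 1 and 131.6, 265.1 and 144.2 CPM in the other libraries, and so followed 1 library. Its relative Timp3 had 435.9 and 503.4 against 772.2 and 961.1 CPM (0.76, SE 0.34, adjusted p = 0.476). Bax, which promotes cell death, had 332.2 and 287.1 against 233.3 and 213.3 CPM (-0.60, SE 0.30, adjusted p = 0.504). Mmp2, a gelatinase, had 107.3 and 22.9 against 3.20 and 1.92 CPM (-4.77, SE 0.85, edgeR adjusted p = 0.254). It was picked after its value was seen, as the lowest gene of all lists.

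**Figure D5:**
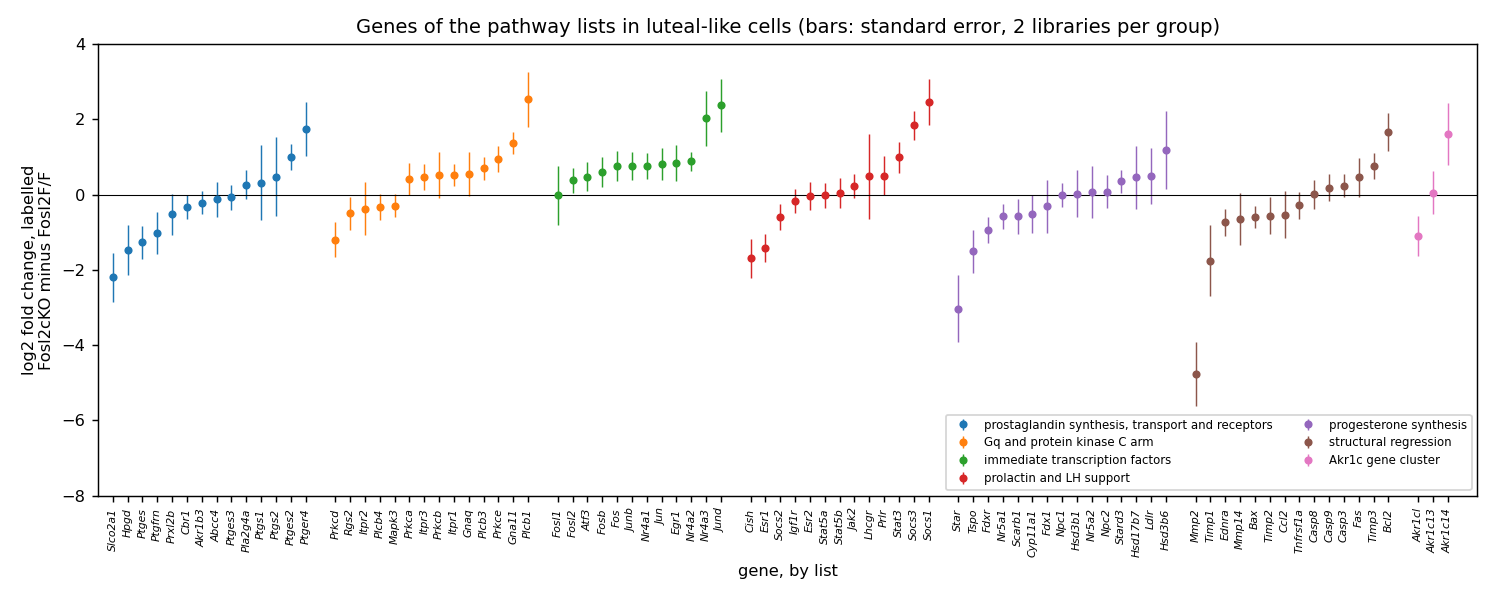
Log2 differences of the pathway genes in luteal-like cells, the libraries labelled Fosl2cKO minus the Fosl2F/F libraries (n = 2 each), with bars for the standard error. Genes are grouped by list and ordered by value within it. Most immediate transcription factors lie above 0, Star and Mmp2 lie lowest, and none of the genes was called by edgeR, while DESeq2 called 9.

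The genes most like each of the 2 in pattern were found by Pearson correlation of log2(CPM + 1) over 52 points, 13 classes in 4 libraries, which share libraries and depth. Of 6976 genes of at least 20 CPM in luteal-like cells, those closest to Akr1c18 were Uchl1, a ubiquitin hydrolase (r = 0.757), the homeobox gene Onecut2 (0.714), Ccn5 (0.683), Gm13481 (0.668) and Ephx2, the soluble epoxide hydrolase (0.652), and Ptgfr was at rank 10 (0.638). Uchl1 had 1204, 168.0, 130.9 and 29.96 CPM in luteal-like cells of Fosl2F/F 1 and 2 and Fosl2cKO 1 and 2, and Onecut2 had 412.4, 179.7, 9.16 and 7.37 CPM. Closest to Ptgfr were Ccn5 (0.899), Sfrp4 (0.891), the lipid droplet coat genes Plin4 (0.872) and Plin5 (0.828), and the serum amyloid gene Saa2 (0.863). Ccn5 was thus near to both, with 193.7 and 139.1 against 46.8 and 20.03 CPM.

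Within luteal-like cells, over 15 points of a cluster in a library with at least 10 cells, the closest to Akr1c18 were other genes: the retinol transporter gene Stra6 (0.917), Pdia4 (0.898), the cell cycle inhibitor gene Cdkn2b (0.883), Hsd17b1 (0.868) and Prrg2 (0.856). Stra6 had 179.6 and 75.7 against 22.8 and 11.7 CPM, and Cdkn2b 253.2 and 93.6 against 13.8 and 3.04 CPM. Closest to Ptgfr there were the RNA editing enzyme gene Adarb1 (0.887), Onecut2 (0.881), Gadd45a (0.859), Palld (0.857) and Slc7a7 (0.856). Akr1c18 and Ptgfr correlated with each other at 0.595 over these points, which put Ptgfr at rank 145 for Akr1c18 and Akr1c18 at rank 123 for Ptgfr.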

How the data were processed

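The deposited files hold whole UMI counts per gene and cell barcode for 4 10x libraries. Per the labels and the study's methods, the authors aligned reads to GRCm38 with Cell Ranger and corrected free RNA with CellBender, and whether the deposited counts carry that correction is not stated. Samples were grouped by their titles, and 0 columns of per-sample values were left unused. Barcodes passed with 500 or more genes, more than 1000 UMIs, less than 0.1% haemoglobin and less than 10% mitochondrial UMIs, and those with the highest Scrublet scores (0.8% per 1000 cells) were removed as doublets (5.75% to 19.4% per library). Libraries were joined by SCTransform and reciprocal PCA anchors (Seurat 5.3.0, sctransform 0.4.2), with Akr1c18 and Ptgfr left out of the features, and clustered at resolution 0.8. A cluster was named where its marker score was at least 0.2, led the next by 0.1 and rested on at least 3 markers. The Abcb1b-led cluster and an Mxd3-led cluster with theca and stromal markers did not meet these rules. A cluster led by oocyte genes such as Elobl met them but was left unnamed for its median depth, 0.314 of that of its libraries, with no listed marker among its top 10 genes. Luteal-like cells were clustered again at resolution 0.3.

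UMIs were summed per class and library and fitted on all genes that passed a filter on low counts with edgeR's quasi-likelihood test (version 4.0.16, TMM scaling, Benjamini-Hochberg adjustment), which was tested on simulated data. The standard errors given are the size of the log2 difference over the square root of the F statistic of that test. DESeq2 1.42.0 was an alternative. An exact permutation test of 2 against 2 libraries cannot go below p = 0.333 and is not given. Named genes were Akr1c18, Ptgfr and Fosl2, the luteal markers, the leading genes of luteal clusters, the 4 most abundant tested genes of each of 7 lists, members of the Akr1c cluster with at least 1 CPM in a class, and the 5 genes most like each of the pair. A gene of the Gq list is not reported here. The pair, the lists and the tests were chosen with earlier results of these data known. Analyses used scanpy 1.11.5 and SciPy 1.17.1.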

Additional observations from a re-analysis of the deposited data

How the results depend on the processing

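Akr1c18 and Ptgfr in luteal-like cells kept their direction under every alternative run: other scaling, DESeq2, no gene filter, each library left out, the blocks, deeper cells, fewer mitochondrial UMIs, other cluster resolutions, no integration, and doublets kept without integration. Keeping doublets with integration was not run, since it needed more memory than was available, and its stand-in was chosen after seeing the data. Neither gene was called in the analysis reported, but DESeq2 called Akr1c18 (-8.16), and without a filter on low counts both were called (-8.14 and -1.48). The number of genes called went from 2 to 462 with DESeq2, to 1064 without that filter and to 8 at resolution 1.2, and ranged from 0 (without Fosl2F/F 1 or 2) to 16 (without Fosl2cKO 1) with a library left out. Of the fits of the pair in other classes, 2 of 11 made a call, against 4 of 12 with DESeq2 and 9 of 12 without the filter. With doublets kept and no integration it was 1 of 10, and the number also moved with a library left out. Calls of all genes rose too. In GCs they went from 1 of 17278 genes to 165 of 25894 with DESeq2 and 259 of 25894 without the filter. In the Abcb1b-led cluster the log2 difference of Ptgfr was -0.38, ranged from -1.04 to 0.84 with a library left out, and turned to 0.06 without Fosl2cKO 1. The share of immune and endothelial cells with a Ptgfr UMI was 1.49% after thinning and 3.92% without. The causes were not tested.

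The replicate numbers are only names here: deviations of same-numbered libraries correlated at 0.01 over 12804 genes in luteal-like cells and at -0.27 over 17260 genes in GCs. With the replicate block, Akr1c18 was called at -8.77, 28 genes were called in luteal-like cells and 6 fits of the pair in other classes. With the numbers of 1 group crossed, a pairing added after seeing the data, the counts were 10 genes and 6 fits, and Akr1c18 in luteal-like cells was not called (-8.35).

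With 2 libraries a group and 177 to 1246 luteal-like cells in each, most changes of the size simulated went uncalled. In Fosl2cKO 2 the 2 Akr1c18 UMIs lie under the limit of 3 counts, so a lower level could not be told from none.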

Other observations

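In the Abcb1b-led cluster the receptor's transcript was held by few cells in 3 of 4 libraries, Fosl2F/F 2 being the exception. In Fosl2F/F 1, 34 of 349 cells had 10 or more Ptgfr UMIs and together held 776 of 1019. In Fosl2F/F 2, 9 of 2025 cells held 125 of 597 UMIs. In Fosl2cKO 1, 32 of 762 cells held 858 of 1092 UMIs, and in Fosl2cKO 2, 34 of 518 cells held 889 of 1122. With those cells set aside, Ptgfr stood at 57.4, 45.4, 15.2 and 33.1 CPM in the 4 libraries, which is above the background of immune and endothelial cells in each. The highest cells held 55, 19, 95 and 76 UMIs. Some cells of this cluster thus carried Ptgfr at counts seen in luteal-like cells, and at resolution 1.2 the 1069 cells of it that held 3653 of its Ptgfr UMIs met the naming rule for luteal-like cells, while the other 2585 cells held 177.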
